A study of Homo sapiens with 18 samples.

Results

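CD74 and the genes of major histocompatibility complex (MHC) class II antigen presentation were followed across poly(A)-enriched RNA-seq libraries of LoVo and DLD-1, established lines derived from human colorectal adenocarcinomas. The set was chosen by gene symbol and held 8 genes of the 61806 gene identifiers in the table, namely CD74, CIITA, HLA-DRA, HLA-DRB1, HLA-DPA1, HLA-DPB1, HLA-DMA and HLA-DMB. There were 6 groups of 3 libraries: LoVo with empty vector (EV), LoVo with LIN28B overexpressed, LoVo with LIN28B overexpressed and 5 µM alpelisib, and the same 3 groups of DLD-1. LIN28B binds RNA and holds back the maturation of let-7 microRNAs, and alpelisib inhibits the alpha isoform of phosphatidylinositol 3-kinase. All 18 libraries came from cells in serum-containing DMEM. The promoter of the LIN28B vector, the number of clones behind each group, the treatment time and the vehicle are not stated in the labels, and no library combined EV with alpelisib. The labels do not say whether the libraries of a group were separate cultures, so a p-value here measures only their spread, which may be technical.

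MHC class II molecules are pairs of an alpha and a beta chain that carry peptides from endosomes to the cell surface and show them to CD4+ T cells. Cells that specialise in antigen presentation make them at all times, while most epithelial cells do so when interferon gamma induces CIITA, the coactivator that docks on proteins bound to class II promoters. CD74, the invariant chain, plugs the groove of new class II molecules and leads them to endosomes, where proteases trim it and HLA-DM exchanges its last fragment for a peptide.

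The line named on a label limits some comparisons. Across the genes tested, Pearson's r of log2(TPM + 1), where TPM is a transcript's length-scaled share of its library, was 0.8904 to 0.9176 between LoVo LIN28B and LoVo EV libraries, and 0.9636 to 0.9680 between LoVo LIN28B and DLD-1 LIN28B libraries. Between LoVo EV and DLD-1 EV libraries r was 0.8864 to 0.9181. Single colon markers went both ways. KRT20 was at 4.32 to 4.95 TPM in LoVo LIN28B, 0.328 to 1.05 TPM in LoVo EV and 111 to 118 TPM in DLD-1 LIN28B. VIL1 was at 22.9 to 26.1, 2.86 to 3.33 and 21.0 to 35.5 TPM in the same order. The LoVo LIN28B libraries are called LoVo-labelled below, and which line they hold could not be checked from expression alone. The same holds for LoVo EV, whose line is also taken from its label. LIN28B itself ranged from 3.66 to 4.91 TPM with EV and from 674 to 706 TPM when overexpressed under the LoVo label, and from 1.17 to 2.74 and from 408 to 493 TPM in DLD-1. Alpelisib groups had 146 to 160 TPM of LIN28B under the LoVo label and 139 to 150 TPM in DLD-1. Transcripts of the mitochondrial genome took 14.5% to 24.0% of TPM in LoVo EV and 7.24% to 15.8% in the other groups. Between 23010 and 25501 genes lay above 0 TPM in a library, and sequencing depth is unknown.

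Class II promoters are known for a shared arrangement of an X box, bound by the RFX complex and CREB-type factors, followed by a Y box, a CCAAT element bound by NF-Y. RefSeq promoter windows of 300 bases around a start site (GRCh38.p14) were matched for 6 of the 8 genes, and for HLA-DQB1, another class II beta chain. CIITA and HLA-DRA were not matched. The 6 stretches shown begin 150 bases before the start site. They end 21 bases before it, or at the last base before an annotated exon where that comes sooner. They are shown because this is where the data place genes of different behaviour side by side. HLA-DRB1 and HLA-DQB1 varied widely between groups, and HLA-DMA and HLA-DMB varied little. Capitals mark matches to the X box letters, CNAG and then, 2 bases on, ACNGATG, or to the CCAAT element ATTGG. Both were searched on both strands, the CCAAT element reading CCAAT on the other, and no match of one overlaps the other. Sequences read 5′ to 3′ on the strand of the gene.
CD74, chr5:150412931-150413060, minus strand: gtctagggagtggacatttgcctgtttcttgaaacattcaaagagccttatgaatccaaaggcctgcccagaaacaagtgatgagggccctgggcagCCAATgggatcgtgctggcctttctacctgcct
HLA-DRB1, chr6:32589869-32589998, minus strand: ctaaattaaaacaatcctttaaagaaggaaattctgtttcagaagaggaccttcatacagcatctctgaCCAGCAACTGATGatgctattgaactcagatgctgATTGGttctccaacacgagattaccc
HLA-DQB1, chr6:32666695-32666807, minus strand: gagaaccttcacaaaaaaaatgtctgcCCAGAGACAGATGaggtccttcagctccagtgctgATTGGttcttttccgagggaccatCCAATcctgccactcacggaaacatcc
HLA-DMB, chr6:32941071-32941178, minus strand: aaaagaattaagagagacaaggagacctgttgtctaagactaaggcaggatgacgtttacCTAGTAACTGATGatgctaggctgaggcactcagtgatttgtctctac
HLA-DMA, chr6:32953123-32953247, minus strand: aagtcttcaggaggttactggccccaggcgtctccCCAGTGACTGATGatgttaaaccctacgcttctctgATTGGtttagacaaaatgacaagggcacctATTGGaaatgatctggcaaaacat
HLA-DPB1, chr6:33075840-33075925, plus strand: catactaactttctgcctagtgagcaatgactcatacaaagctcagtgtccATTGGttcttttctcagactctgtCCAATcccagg

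The X box letters were found in HLA-DRB1 at positions -81 to -69 from the start site, in HLA-DMB at -90 to -78, in HLA-DMA at -115 to -103 and in HLA-DQB1 at -123 to -111. They occur in 50 of 35116 RefSeq windows of 300 bases (0.1424%), the CCAAT element in 12155 (34.61%) and both in 22 (0.06265%). CD74 and HLA-DPB1 had the CCAAT element without the X box letters, and neither of 2 windows of HLA-DPA1 had a match. In HLA-DMB a CCAAT element lay at -22 to -18, inside an annotated exon and outside the stretch shown. HLA-DRB1 had another at -195 to -191, also outside its stretch. The letters follow textbook motifs but were set after the sequences had been seen, and a match is a description of letters, not a bound site. Only exact matches were counted, so a missing match does not show that a promoter lacks an X box. The X box letters were thus shared by class II genes that were high in LoVo EV alone and by HLA-DM genes present in every group.

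**Figure D1:**
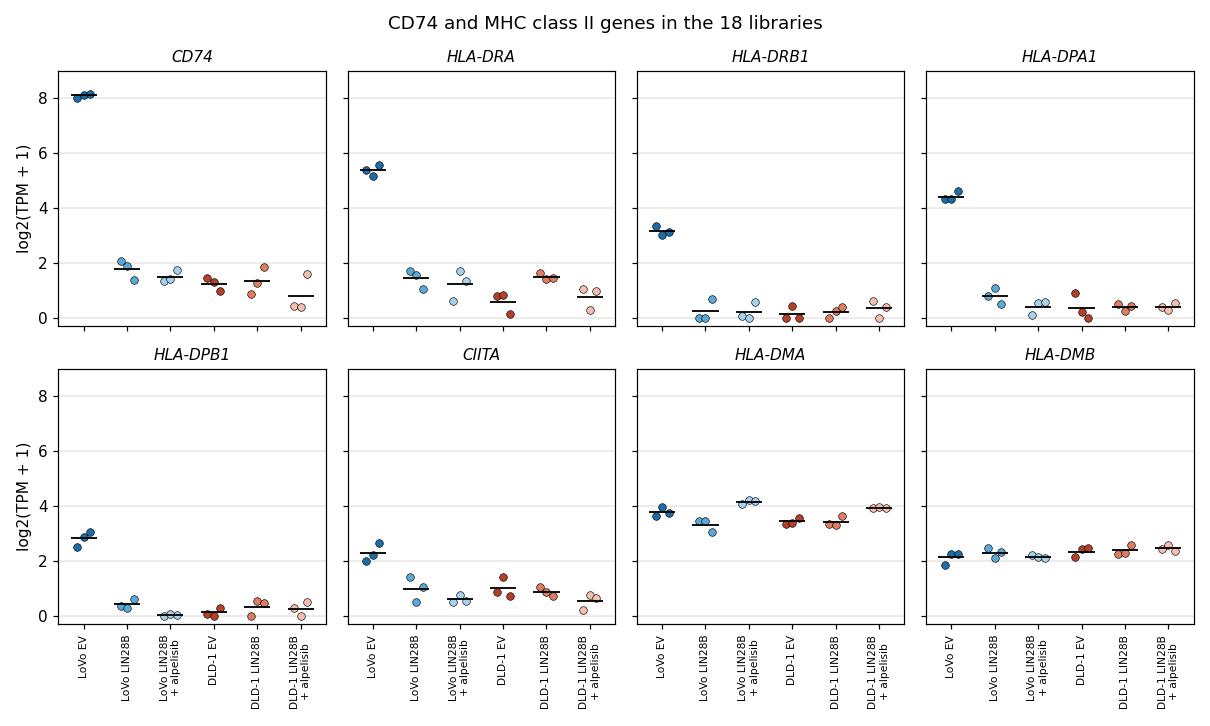
Level of CD74 and 7 MHC class II genes as log2(TPM + 1) (vertical axis) in each of 18 libraries (points), by group (horizontal axis), with the group mean as a line. CD74, HLA-DRA, HLA-DRB1, HLA-DPA1, HLA-DPB1 and CIITA stand higher in the 3 LoVo EV libraries than in all 15 others, while HLA-DMA and HLA-DMB do not.

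LoVo EV stood apart from the other 5 groups. In 6 of the 8 genes every LoVo EV library lay above all 15 other libraries, as it did for 1430 of the 18537 genes tested (7.71%). The order of levels in LoVo EV ran from CD74 through HLA-DRA, HLA-DPA1, HLA-DMA, HLA-DRB1, HLA-DPB1 and CIITA to HLA-DMB. Neighbours in that order whose libraries overlapped were HLA-DRB1 and HLA-DPB1, HLA-DPB1 and CIITA, and CIITA and HLA-DMB. In each of the other 5 groups the order began with HLA-DMA and then HLA-DMB. All levels are TPM, which is scaled by gene length, and all 8 genes passed the filter of 1 TPM in at least 3 libraries. HLA-DRB1 and HLA-DPB1 passed it through LoVo EV alone, so their lack of overlap with the other libraries follows from the filter. Outside LoVo EV, HLA-DPA1 reached 1 TPM in 1 library, CIITA in 4, HLA-DRA in 9 and CD74 in 11.

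CD74 (ENSG00000019582, GRCh38 chr5:150401637-150412929, minus strand), the invariant chain, measured 258, 276 and 287 TPM in LoVo EV. The LoVo-labelled LIN28B libraries had 3.16, 2.72 and 1.61 TPM and those with alpelisib 1.53, 1.63 and 2.32 TPM. DLD-1 had 1.69, 1.49 and 0.940 TPM with EV, 0.794, 1.39 and 2.61 TPM with LIN28B, and 0.339, 0.313 and 1.98 TPM with alpelisib. The lowest LoVo EV library was thus far above the highest of the 15 others, and those 15 overlapped from group to group. Replicate 3 of DLD-1 LIN28B with alpelisib was the high library of its group. Mean CD74 was 274 ± 14.4 TPM in LoVo EV (SD, n = 3), 199-fold that of DLD-1 EV (1.37 ± 0.389 TPM) and 110-fold that of LoVo-labelled LIN28B (2.50 ± 0.798 TPM).

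HLA-DRA (ENSG00000204287, chr6:32439842-32445046, plus strand) encodes the DR alpha chain, the partner of all DR beta chains. It measured 41.1, 34.8 and 45.9 TPM in LoVo EV. The LoVo-labelled libraries had 2.26, 1.94 and 1.08 TPM with LIN28B alone and 0.530, 2.23 and 1.51 TPM with alpelisib. DLD-1 had 0.735, 0.773 and 0.0993 TPM with EV, 2.07, 1.66 and 1.71 TPM with LIN28B, and 1.07, 0.209 and 0.938 TPM with alpelisib. The 3 DLD-1 LIN28B libraries lay above the 3 DLD-1 EV libraries, as they did for 12.9% of all genes, and all were at low levels. HLA-DRB1 (ENSG00000196126, chr6:32578769-32589848, minus strand), a DR beta chain, measured 9.06, 6.97 and 7.60 TPM in LoVo EV. Elsewhere it was listed between 0 and 0.598 TPM, with 7 of 15 libraries at 0.

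The DP pair showed the same contrast at lower levels. HLA-DPA1 (ENSG00000231389, chr6:33064569-33080775, minus strand), the DP alpha chain, measured 19.0, 18.8 and 23.4 TPM in LoVo EV. It reached 0.726, 1.13 and 0.408 TPM in LoVo-labelled LIN28B, and 0 to 0.847 TPM in the other 4 groups. HLA-DPB1 (ENSG00000223865, chr6:33075926-33087201, plus strand), the DP beta chain, measured 4.75, 6.37 and 7.35 TPM in LoVo EV, and 0 to 0.519 TPM in the other 15 libraries, of which 4 were at 0. For both DP genes LoVo EV did not overlap any other group. HLA-DPA1 and HLA-DPB1 lie on opposite strands and share 4850 bases, so without knowledge of strand in counting their reads cannot be told apart there.

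CIITA (ENSG00000179583, chr16:10866222-10943021, plus strand), the class II coactivator, measured 3.0, 3.60 and 5.30 TPM in LoVo EV. It measured 1.69, 0.403 and 1.07 TPM in LoVo-labelled LIN28B and 0.431, 0.696 and 0.465 TPM with alpelisib. In DLD-1 it measured 0.824, 1.65 and 0.643 TPM with EV, 1.08, 0.807 and 0.657 TPM with LIN28B, and 0.155, 0.679 and 0.563 TPM with alpelisib. LoVo EV was again the highest group without overlap, but its mean of 3.97 ± 1.19 TPM was 3.81-fold that of DLD-1 EV, a smaller ratio than the 75.7-fold of HLA-DRA or the 199-fold of CD74. CIITA overlaps DEXI over 13570 bases and the antisense gene AC133065.1 over 22531 bases, both on the opposite strand.

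HLA-DMA (ENSG00000204257, chr6:32948613-32969094, minus strand) and HLA-DMB (ENSG00000242574, chr6:32934629-32941070, minus strand) encode the alpha and beta chains of HLA-DM, the peptide editor. HLA-DMA measured 11.4, 14.7 and 12.3 TPM in LoVo EV. Under the LoVo label LIN28B libraries had 9.86, 10.1 and 7.33 TPM untreated and 15.7, 17.8 and 17.2 TPM with alpelisib. In DLD-1 it measured 9.19, 9.55 and 10.9 TPM with EV, 9.09, 8.81 and 11.5 TPM with LIN28B, and 14.1, 14.6 and 14.4 TPM with alpelisib. Both alpelisib groups lay above the untreated LIN28B group of their label without overlap, as did 19.7% of all genes under the LoVo label and 15.6% in DLD-1. HLA-DMB stayed between 2.63 and 5.04 TPM in all 18 libraries. Each of these genes shares bases with AL645941.2 on the same strand (4510 for HLA-DMA, 3707 for HLA-DMB), so part of their level is uncertain.

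**Figure D2:**
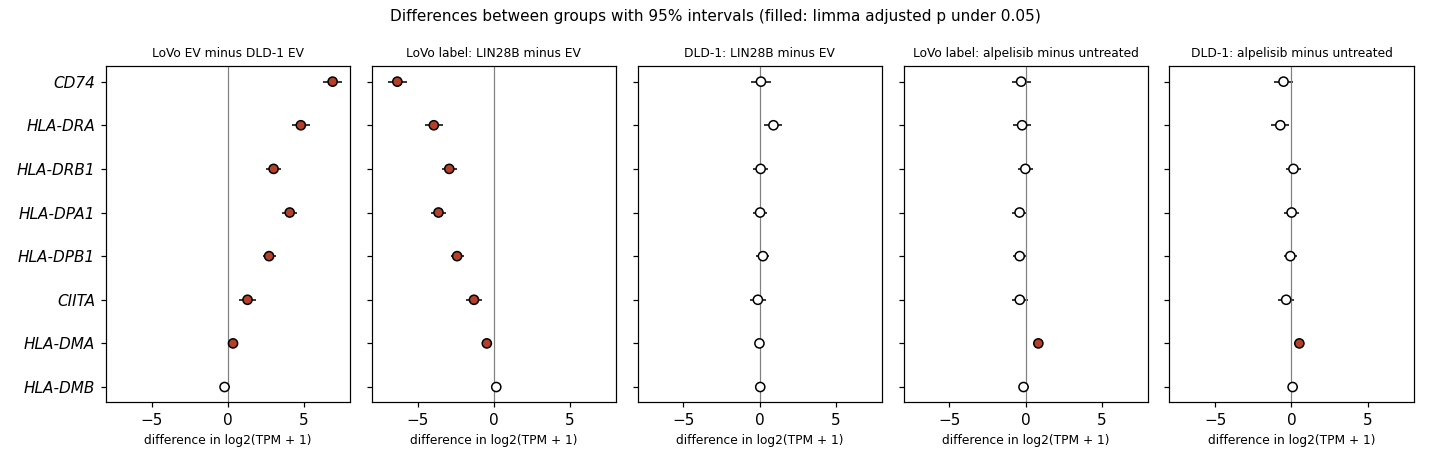
Difference in log2(TPM + 1) between groups (horizontal axis, points with 95% intervals) for each of the 8 genes (rows) in 5 comparisons (panels), with filled points at a limma adjusted p under 0.05. CD74 is at 6.87 for LoVo EV minus DLD-1 EV and at -6.32 for LoVo-labelled LIN28B minus LoVo EV. In both alpelisib panels HLA-DMA is the only filled point.

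The 2 EV groups, a comparison that uses no LIN28B library, were compared first. The line of each was taken from its label and could not be checked from expression alone. By limma on log2(TPM + 1) with Benjamini-Hochberg adjustment, 7 of the 8 genes were higher in LoVo EV than in DLD-1 EV, against 17.3% of all genes called higher and 55.5% called in either direction. HLA-DRB1 and HLA-DPB1 had passed the filter through LoVo EV alone, and HLA-DPA1, with 1 other library at 1 TPM, also passed only with LoVo EV. The direction of these differences thus followed from the filter. With 1 TPM asked for in 6 libraries 5 of the 8 were tested and 4 called. CD74 was higher by 6.87 log2 (SE 0.30, 95% interval 6.24 to 7.50, adjusted p = 1.86e-11) and HLA-DRA by 4.78 (SE 0.28, interval 4.19 to 5.37, adjusted p = 6.75e-10). HLA-DPA1 was higher by 4.05 (adjusted p = 3.73e-10), HLA-DRB1 by 3.0 (2.65e-08) and HLA-DPB1 by 2.7 (1.11e-08). CIITA was higher by 1.29 (SE 0.25, interval 0.75 to 1.83, adjusted p = 0.000403). HLA-DMA differed by 0.34 (adjusted p = 0.0381), a call lost when the fit held only the 2 groups compared (adjusted p = 0.0826), with no filter on low values (0.0557), or without LoVo EV replicate 2 (0.173), DLD-1 EV replicate 1 (0.118) or DLD-1 EV replicate 2 (0.0946). With LoVo EV replicate 3 as the only LoVo EV library it was 0.228, and 6 of the 8 genes were called. HLA-DMB differed by -0.22 (interval -0.54 to 0.11) and did not pass. The median difference was 2.85 log2 over the 8 genes and -0.20 over all genes tested. Because these values add 1 TPM before the logarithm, they understate the change of genes near 0.

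Under the LoVo label, LIN28B libraries were compared with the same 3 EV libraries. Here 7 of the 8 genes were lower, against 16.5% of all genes called lower and 56.8% called in either direction. Of these, HLA-DRB1, HLA-DPA1 and HLA-DPB1 passed the filter only with the LoVo EV libraries, so their direction follows from the filter. CD74 was lower by 6.32 log2 (difference -6.32, SE 0.30, limma adjusted p = 5.56e-11). The differences were -3.93 for HLA-DRA (adjusted p = 6.92e-09), -3.62 for HLA-DPA1 (1.48e-09), -2.92 for HLA-DRB1 (3.57e-08), -2.40 for HLA-DPB1 (4.40e-08) and -1.30 for CIITA (0.000356). HLA-DMA differed by -0.46 (adjusted p = 0.00717), which was lost when only the compared groups were fitted (0.0550) or LoVo EV replicate 3 alone stood for LoVo EV (0.0848), and HLA-DMB by 0.16 (interval -0.16 to 0.49, adjusted p = 0.386). The median was -2.66 log2 over the 8 genes and 0.26 over all genes tested. Since LoVo-labelled LIN28B libraries resembled DLD-1 libraries more than LoVo EV, the effect of LIN28B and a difference between lines cannot be told apart in these values.

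Directly compared, the LoVo-labelled and DLD-1 LIN28B groups differed in 0 of the 8 genes by limma at an adjusted p under 0.05, against 14% of all genes called. The unadjusted p was also above 0.05 for all 8 genes. The difference in CD74 was 0.46 log2 (interval -0.17 to 1.09) and in HLA-DPA1 0.40 (interval -0.07 to 0.88). Between the 2 alpelisib groups 0 of 8 passed, against 19.1% of all genes, and 1 had an unadjusted p under 0.05, CD74, at 0.69 (interval 0.06 to 1.32, adjusted p = 0.118). Without replicate 3 of DLD-1 LIN28B with alpelisib, the library with high CD74, this became 1.08 (adjusted p = 0.00957). Neither count of 0 shows that the 8 genes were equal between the groups.

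Within DLD-1, r between EV and LIN28B libraries was 0.9757 to 0.9797. There 0 of the 8 genes were called between LIN28B and EV, against 2.53% of all genes called by limma. With so few of all genes called, this count does not show that the 8 were unchanged. HLA-DRA alone had an unadjusted p under 0.05, with a difference of 0.90 log2 (SE 0.28, interval 0.31 to 1.49, adjusted p = 0.109). CD74 differed by 0.09 (interval -0.54 to 0.71), CIITA by -0.12 (interval -0.66 to 0.42) and HLA-DMA by -0.02 (interval -0.29 to 0.26). Tested as a difference of the LIN28B effect between labels, 6 of 8 genes were more negative under the LoVo label, against 12.4% of all genes called lower and 42.7% called in either direction. Among them HLA-DRB1, HLA-DPA1 and HLA-DPB1 passed the filter only with LoVo EV, so their direction follows from the filter. The difference of effects was -6.41 log2 for CD74 (adjusted p = 8.94e-09) and -1.18 for CIITA (adjusted p = 0.0143, or 0.0580 with a pseudocount of 0.1), and it carries the same doubt over the line.

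With alpelisib 1 of the 8 genes, HLA-DMA, was called higher under each label, a count near the share of all genes given below. LIN28B itself was lower in the same comparisons (difference -2.15 log2 under the LoVo label and -1.68 in DLD-1), and its part in the HLA-DMA values was not tested. Under the LoVo label HLA-DMA rose by 0.84 log2 (SE 0.13, interval 0.56 to 1.12, limma adjusted p = 0.000127) or 1.86-fold in mean TPM, from 9.09 ± 1.53 to 16.9 ± 1.11 TPM (SD, n = 3). In DLD-1 HLA-DMA rose by 0.52 log2 (SE 0.13, interval 0.24 to 0.80, adjusted p = 0.00758) or 1.47-fold, from 9.80 ± 1.48 to 14.4 ± 0.243 TPM. Of all genes, 15.1% were called higher under the LoVo label and 9.05% in DLD-1, and 39.7% and 31% were called in either direction. The HLA-DMA call held in all 14 alternatives of each comparison. The 2 effects on HLA-DMA differed by 0.32 (interval -0.07 to 0.71, adjusted p = 0.529), and 0 of 8 genes passed the test of that difference, against 0.847% of all genes and 0 of 8 at an unadjusted p under 0.05.

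The partner chain of HLA-DMA did not move with it past the test. HLA-DMB differed by -0.13 log2 under the LoVo label (interval -0.46 to 0.19) and by 0.07 in DLD-1 (interval -0.25 to 0.40). CD74 differed by -0.29 (interval -0.92 to 0.34) and -0.52 (interval -1.15 to 0.11), and without replicate 3 of DLD-1 LIN28B with alpelisib the latter became -0.91 (adjusted p = 0.0163). HLA-DRA differed by -0.23 (interval -0.82 to 0.36) under the LoVo label and by -0.73 in DLD-1 (interval -1.32 to -0.14, adjusted p = 0.0568). CIITA differed by -0.38 and -0.35 (adjusted p = 0.259 and 0.326).

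Alpelisib-treated LIN28B cells were also set against EV. Under the LoVo label 6 of the 8 genes were lower, by 1.68 log2 for CIITA (difference -1.68, limma adjusted p = 4.38e-05) to 6.61 for CD74 (difference -6.61, adjusted p = 2.64e-11), against 14.7% of all genes called lower and 46.8% in either direction. HLA-DMA was higher by 0.38 (adjusted p = 0.0250, with 32.2% of all genes called higher), which was 0.15 (adjusted p = 0.394) after median-of-ratios scaling and 0.21 (0.241) with mitochondrial transcripts left out. The HLA-DMA call there was also lost with only the compared groups fitted (0.0633) and without LoVo EV replicate 1 (0.103) or 3 (0.0571) or alpelisib replicate 2 (0.0813) or 3 (0.0586). In DLD-1 HLA-DMA was the 1 gene called, higher by 0.50 (SE 0.13, adjusted p = 0.00898), against 9.71% of all genes called higher and 29.9% in either direction. Of the 6 genes lower under the LoVo label, HLA-DRB1, HLA-DPA1 and HLA-DPB1 passed the filter only with LoVo EV, so their direction follows from it. Comparisons that share a group, here LoVo EV, are not independent.

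Among other class II genes, HLA-DQB1 and HLA-DOB passed the filter, of 9 listed. HLA-DQB1 (ENSG00000179344, chr6:32659467-32668383, minus strand), the DQ beta chain whose promoter is printed above, measured 26.4, 26.9 and 27.7 TPM in LoVo EV. It measured 1.22, 1.21 and 1.78 TPM in LoVo-labelled LIN28B, 1.72, 2.22 and 1.90 TPM with alpelisib, 0, 0.0983 and 0.179 TPM in DLD-1 EV, 0 in all 3 DLD-1 LIN28B libraries and 0.0692, 0 and 0.0609 TPM in DLD-1 with alpelisib. HLA-DQB1 thus fell into 3 levels without overlap, with the LoVo-labelled LIN28B groups between LoVo EV and all of DLD-1. It was higher in LoVo-labelled than in DLD-1 LIN28B libraries by 1.26 log2 (limma adjusted p = 8.81e-06), and by 1.5 with alpelisib (adjusted p = 9.54e-07). None of the 8 genes above was called in these comparisons, which does not show that they were equal there. For HLA-DQB1, LoVo EV exceeded DLD-1 EV by 4.68 (adjusted p = 3.07e-13) and LoVo-labelled LIN28B differed from LoVo EV by -3.55 (adjusted p = 7.71e-12).

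HLA-DOB, the beta chain of HLA-DO, which restrains HLA-DM, measured 3.34, 2.00 and 1.62 TPM in LoVo EV. LoVo-labelled LIN28B libraries had 0.573, 0.273 and 0.165 TPM. Alpelisib libraries had 1.72, 1.85 and 1.13 TPM, above the untreated libraries without overlap, and rose by 0.94 log2 (SE 0.25, limma adjusted p = 0.00709). In DLD-1 HLA-DOB had 0.282, 1.46 and 0.516 TPM with alpelisib beside 0.140, 0.353 and 0 TPM without, a difference of 0.54 (adjusted p = 0.112). HLA-DQA1, the DQ alpha chain, measured 0.686, 0.681 and 1.95 TPM in LoVo EV and 0 to 0.216 TPM elsewhere, with 12 of 15 libraries at 0. HLA-DRB5 was listed at 0.0881 TPM in LoVo EV replicate 3 and at 0 in the other libraries. HLA genes differ between people and resemble each other in sequence, so reads of a line's own alleles may be lost or split between them.

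**Figure D3:**
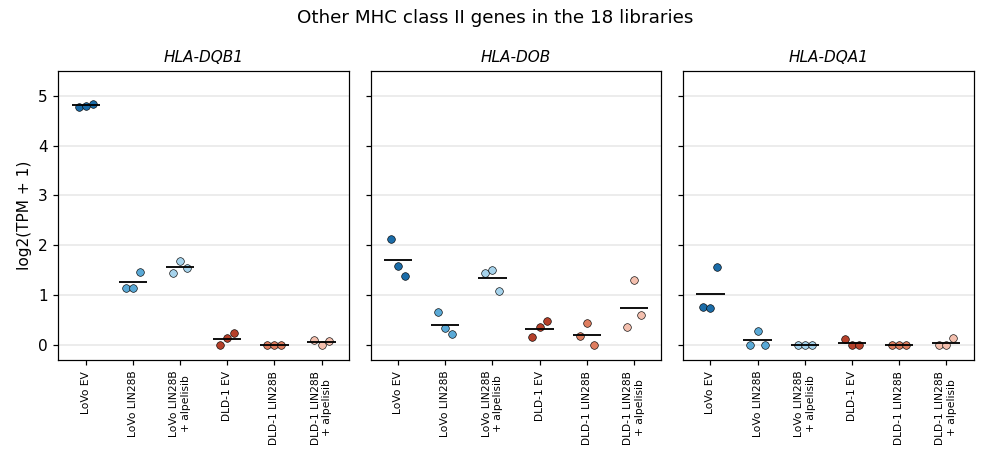
Level of HLA-DQB1, HLA-DOB and HLA-DQA1 as log2(TPM + 1) (vertical axis) in each of 18 libraries (points), by group (horizontal axis), with the group mean as a line. HLA-DQB1 is at 26.4 to 27.7 TPM in LoVo EV, at 1.21 to 2.22 TPM in both LoVo-labelled LIN28B groups and at or below 0.179 TPM in DLD-1.

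The next lists are read against all genes, of which 17.3% were called higher and 38.2% lower in LoVo EV than in DLD-1 EV (median -0.20 log2), and 40.3% higher and 16.5% lower in LoVo-labelled LIN28B than in LoVo EV (median 0.26). With alpelisib 15.1% were called higher and 24.6% lower under the LoVo label, and 9.05% and 21.9% in DLD-1. No list was tested as a set, so a count that leans the way of all genes says nothing particular to its list. The first list holds the factors that bind class II promoters. Of RFX5, RFXAP, RFXANK, NFYA, NFYB, NFYC, CREB1 and ATF1, 0 of 8 were higher and 6 lower in LoVo EV than in DLD-1 EV (median -0.49 log2, 2 higher and 4 lower after median-of-ratios scaling). NFYA, a subunit of NF-Y, differed by -0.67 (limma adjusted p = 0.000294) and 2 related leucine zipper factors by -1.0 (ATF1, 3.53e-05) and -1.28 (CREB1, 6.36e-05). In LoVo-labelled LIN28B against LoVo EV, 5 were higher and 1 lower (3 and 2 after scaling). RFXANK, a subunit of the RFX complex, rose with alpelisib by 0.63 in each line label (adjusted p = 0.000112 under the LoVo label and 0.000255 in DLD-1), while NFYA fell by 0.55 (difference -0.55, adjusted p = 0.00271) and 0.56 (difference -0.56, 0.00399). With alpelisib, 1 of the 8 factors was higher and 3 lower under each label. All 8 factors were present in every library, the least abundant, RFXAP, at 2.78 to 5.89 TPM outside LoVo EV.

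Proteases and handling proteins of the class II route went in both directions. Of 11 tested, 2 were higher and 6 lower in LoVo EV than in DLD-1 EV (2 and 4 after scaling), against 17.3% and 38.2% of all genes, with a median of -0.45 log2 beside -0.20. CTSS, the cysteine protease known for the last cuts of CD74, named here after its values were seen, measured 3.34, 4.04 and 4.68 TPM in LoVo EV and 0.0669 to 1.46 TPM elsewhere, without overlap. The excess of CTSS over DLD-1 EV was 1.67 log2 (adjusted p = 1.42e-05 by limma). SPPL2A, the membrane protease that clears the last stub of CD74, was lower by 1.68 (difference -1.68, adjusted p = 3.15e-08), the aspartic protease CTSD by 1.52 (difference -1.52, 4.20e-07) and CTSL, a cysteine protease, by 1.26 (difference -1.26, 7.73e-07). In LoVo-labelled LIN28B against LoVo EV, 4 were higher and 4 lower, against 40.3% and 16.5% of all genes, among them SPPL2A (1.42), CTSL (1.11) and LGMN, the asparagine endopeptidase (0.97), all higher. CTSD fell with alpelisib by 0.68 under the LoVo label (difference -0.68, adjusted p = 0.00236) and by 0.58 in DLD-1 (difference -0.58, 0.00958), where 1 gene was higher and 2 lower, and 0 higher and 2 lower, of the 11 (1 and 1, and 0 and 1, after scaling).

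Genes of the interferon gamma pathway, the usual inducer of CIITA, were also mixed. Of 13 tested, 3 were higher and 8 lower in LoVo EV than in DLD-1 EV (3 and 4 after scaling, median -0.46 log2), against 17.3% and 38.2% of all genes (median -0.20). SOCS3, an inhibitor of JAK signalling, was higher by 2.63 (limma adjusted p = 2.06e-09) and PRDM1, a repressor known to act on a CIITA promoter, by 1.80 (2.00e-07), while JAK1, the kinase of the receptor, was lower by 1.63 (difference -1.63, 4.93e-08). In LoVo-labelled LIN28B against LoVo EV, 5 of 13 were higher and 3 lower (3 and 8 after scaling), against 40.3% and 16.5% of all genes. SOCS3 (-1.96) and PRDM1 (-1.97) were lower, and IRF8, an interferon regulatory factor, was higher by 2.06, from 0.0367 to 0.640 TPM up to 3.73 to 4.55 TPM. SOCS1, another JAK inhibitor, rose with alpelisib under the LoVo label from 1.14, 1.18 and 1.67 TPM to 5.18, 5.87 and 4.19 TPM (1.38 log2, adjusted p = 0.000255), and in DLD-1 the difference was -0.27 (adjusted p = 0.413). The 2 effects on SOCS1 differed by 1.65, a call that leaving out 1 library could end. With alpelisib, 2 of 13 were higher and 3 lower under the LoVo label (2 and 1 after scaling), and 0 higher and 5 lower in DLD-1 (0 and 3 after scaling). All genes too were called lower more often than higher with alpelisib, 24.6% against 15.1% under the LoVo label and 21.9% against 9.05% in DLD-1.

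**Figure D4:**
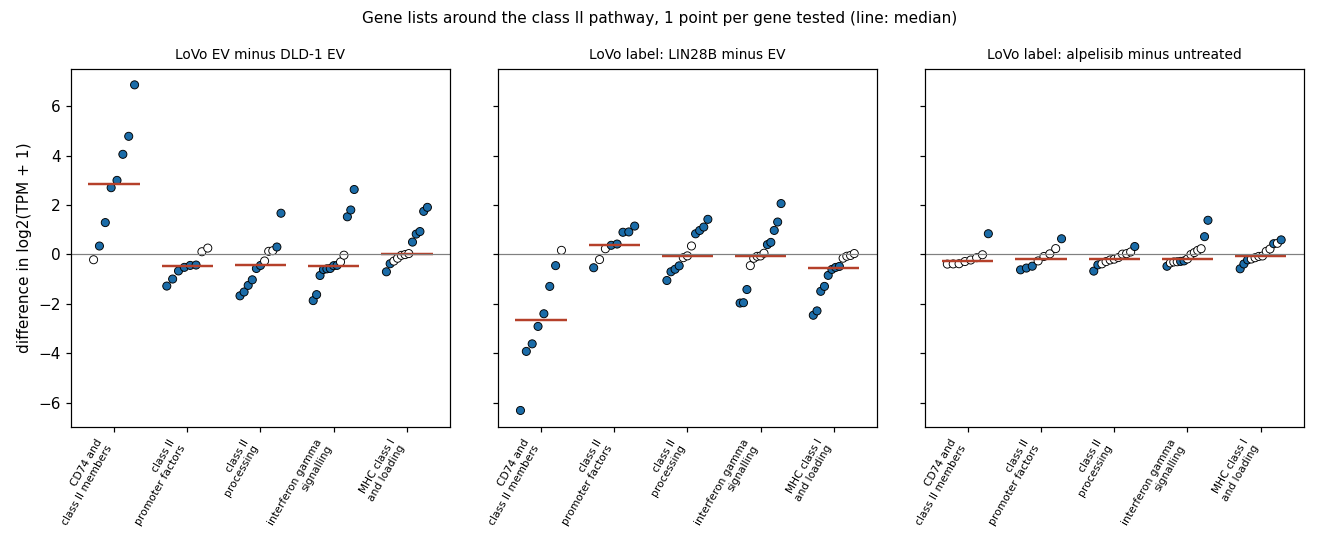
Difference in log2(TPM + 1) (vertical axis) of each gene tested (points) in 5 gene lists (horizontal axis) for 3 comparisons (panels), with filled points at a limma adjusted p under 0.05 and the list median as a line. CD74 and the class II genes have medians of 2.85, -2.66 and -0.26 from left to right, the promoter factors -0.49, 0.39 and -0.17. HLA-DRB1, HLA-DPA1 and HLA-DPB1 passed the filter only with LoVo EV, so their direction in the left and middle panels follows from the filter.

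Class I molecules show peptides from the cytosol to CD8+ T cells. Of 12 class I presentation genes tested, 5 were higher and 2 lower in LoVo EV than in DLD-1 EV (8 and 1 after scaling), against 17.3% and 38.2% of all genes. Their median was 0.01 log2, beside -0.20 for all genes and 2.85 for the 8 class II genes. The 2.85 depends in part on the filter, which HLA-DRB1, HLA-DPA1 and HLA-DPB1 passed only with LoVo EV. HLA-B, a class I heavy chain, was higher by 1.74 (limma adjusted p = 1.11e-08), HLA-F, a nonclassical heavy chain, by 0.93 (6.30e-06), and NLRC5, the class I counterpart of CIITA, by 1.91 (4.15e-05). In LoVo-labelled LIN28B against LoVo EV, 0 were higher and 8 lower (12 lower after scaling), against 40.3% and 16.5% of all genes, led by the immunoproteasome subunit PSMB9 at -2.47 (9.06e-10), HLA-B at -1.5 (6.61e-08) and HLA-F at -1.30 (1.45e-07). Within DLD-1, LIN28B libraries had 5 of 12 class I genes lower and 0 higher (7 lower after scaling), against 1.32% of all genes lower and 1.21% higher, among them HLA-B at -0.58 (adjusted p = 0.0269) and PSMB9 at -0.61 (0.0379). Each of these calls on HLA-B and PSMB9 was lost when any 1 of the 6 libraries was left out (0.0656 to 0.103 for HLA-B, 0.0829 to 0.128 for PSMB9). PSMB8, another immunoproteasome subunit, rose with alpelisib by 0.59 under the LoVo label (adjusted p = 8.54e-05) and by 0.45 in DLD-1 (0.00140), where 2 of 12 were higher and 3 lower, and 1 higher and 2 lower (3 and 1, and 1 and 1, after scaling).

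CD74 at the cell surface is also a receptor for the cytokine MIF and its relative DDT, and 4 of the 6 listed ligands and co-receptors were tested. MIF was at 2273 to 2946 TPM in LoVo EV and 1718 to 2446 TPM elsewhere, so its level was high whether or not CD74 was. MIF was lower in LoVo-labelled LIN28B than in LoVo EV by 0.34 log2 (difference -0.34, limma adjusted p = 0.0105), a call lost without LoVo EV replicate 1 (-0.27, adjusted p = 0.0598). The co-receptor CD44 was at 163 to 245 TPM in LoVo EV and 78.6 to 186 TPM elsewhere. Another co-receptor, CXCR4, measured 1.12, 1.38 and 1.15 TPM in LoVo EV and 0 to 0.516 TPM elsewhere, and was higher in LoVo EV than in DLD-1 EV by 1.11 (adjusted p = 8.24e-06). CXCR4 passed the filter through LoVo EV alone, so this difference follows from the filter. In that comparison 2 of 4 were called higher, CXCR4 included, and 0 lower (3 higher after scaling). In LoVo-labelled LIN28B against LoVo EV 1 was higher and 3 lower (0 and 3 after scaling), against 40.3% and 16.5% of all genes. CXCR4 was among the lower, and its direction there also follows from the filter. The higher was DDT at 0.56 (adjusted p = 0.000366, and 0.20, 0.0855, after scaling).

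Markers of cells that specialise in antigen presentation were read beside the class II values. Their 10 genes summed to 12.48 to 19.95 TPM in LoVo EV and to 4.02 to 8.85 TPM in the other groups. In LoVo EV most of this was CD68, a lysosomal protein of macrophages that other cells also express, at 7.97 to 15.1 TPM. PTPRC, the common leukocyte antigen, MS4A1, the B-cell antigen CD20, and AIF1, a macrophage gene, were listed at 0 in all 3 LoVo EV libraries. Of the 10 markers, 6 were below 1 TPM in every LoVo EV library, those 3 included. Epithelial and colon markers also differed: of 8 tested, of 9 listed, 0 were higher and 8 lower in LoVo EV than in DLD-1 EV (8 lower after scaling, median -1.37 log2), against 38.2% of all genes lower. In LoVo-labelled LIN28B against LoVo EV, 7 were higher and 0 lower (5 and 2 after scaling), against 40.3% of all genes higher. In LoVo EV EPCAM was at or above 458 TPM, KRT8 at or above 2383 TPM and KRT18 at or above 1700 TPM. CDX2 was at 83.0 to 111 TPM there and CDH1 at 59.6 to 80.3 TPM. VIL1 was at 2.86 to 3.33 TPM, LGALS4 at 1.96 to 4.40 TPM and KRT20 at 0.328 to 1.05 TPM. CDX1, the marker not tested, was at 0.0557 to 0.113 TPM in LoVo EV and at 0 to 1.05 TPM in the other groups. The part of these markers in the class II differences was not tested.

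The genes whose level followed CD74 most closely over 18 libraries, leaving out the 8 genes and clone names, were COL6A2, a collagen VI chain (r = 0.9892), CAMK4, a calmodulin-dependent kinase (0.9872), and SLFN5, TLL1, a protease, and GPAT2, an acyltransferase (0.9870 each). They ranked 1 to 5 of 15798 genes on log2(TPM + 1), but with a pseudocount of 0.1 COL6A2 ranked 1, CAMK4 2, GPAT2 6, TLL1 55 and SLFN5 59. All 5 were below 1 TPM outside LoVo EV, COL6A2 for example at 13.0 to 13.9 TPM in LoVo EV and 0 to 0.208 TPM elsewhere. They passed the filter through LoVo EV alone, so their likeness to CD74 follows in part from the filter. For the class II genes r to CD74 was 0.9859 for HLA-DPA1, 0.9731 for HLA-DRA, 0.9724 for HLA-DPB1, 0.9623 for HLA-DRB1 and 0.8799 for CIITA, but 0.1143 for HLA-DMA and -0.4405 for HLA-DMB. These values rest on the 3 LoVo EV libraries, since over the other 15 r was 0.6783 for COL6A2, 0.4353 to 0.5021 for the other 4, 0.5311 for HLA-DRA, 0.2598 for CIITA and -0.0036 for HLA-DRB1. They describe likeness across libraries that share a group and carry no test.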

How the data were processed

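Expression was read from 1 table of 61806 genes in 18 libraries. The deposited values are TPM, per the file headers, 1 column per library. The submitters' processing notes name hg38, STAR 2.7.10, Picard, HTSeq and DESeq2 without role or order. Neither the annotation release nor strand use nor gene lengths are stated there. TPM keeps no depth, so precision rests on the spread of 3 libraries, and a fixed total makes other genes shift when abundant transcripts change.

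Identifiers were matched to symbols (61757 matched), and coordinates come from a GRCh38 annotation (GENCODE). Genes at 1 TPM or more in 3 libraries were kept (18537), transformed to log2(TPM + 1) and fitted by limma 3.58.1 under R 4.3.3, with moderated variances and a mean-variance trend. The model held 6 groups, with 12 residual and 3.98 prior degrees of freedom. P-values were two-sided and Benjamini-Hochberg adjusted over all genes, with calls under 0.05. The procedure was tested on simulated data.

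The genes and lists were chosen with earlier results of these data known. The genes named were the 8 members in each comparison, up to 3 of each list with the smallest p, list genes above 10 TPM, and the 5 genes closest to CD74. CTSS, HLA-DQA1, HLA-DRB5, RFXAP and the marker genes named were picked after their values were seen. Not every gene the rule allows is reported here. A replicate number was not found to pair libraries.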

Additional observations from a re-analysis of the deposited data

Results flagged for a closer look

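Several genes differed between labels in the effect of LIN28B, by a limma test of the difference itself (LoVo label minus DLD-1, log2). CD74 had a difference of -6.41, HLA-DRA -4.83, HLA-DPA1 -3.65, HLA-DQB1 -3.43, HLA-DRB1 -2.98 and HLA-DPB1 -2.62. The same test gave -1.18 for CIITA, -1.17 for HLA-DOB and -1.55 for SOCS1. For HLA-DRB1, HLA-DPA1 and HLA-DPB1, which passed the filter only with LoVo EV, the direction follows from the filter. Since the LoVo-labelled LIN28B libraries resembled DLD-1 in expression, LIN28B and the line cannot be told apart in these differences. With a pseudocount of 0.1, adjusted p was 0.0580 for CIITA and 0.0943 for HLA-DOB, and with LoVo EV replicate 3 as the only LoVo EV library it was 0.136 for HLA-DOB.

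SOCS1 also differed between labels in the effect of alpelisib, by 1.65 log2. That call was lost without LoVo-labelled LIN28B replicate 1 or 2, DLD-1 LIN28B replicate 1 or 2, or replicate 1 or 2 of either alpelisib group (adjusted p = 0.0539 to 0.0764), with a pseudocount of 0.1 (0.0878) and with no filter on low values (0.0625).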

How the results depend on the processing

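The count of the 8 genes called changed by more than 1.5 times in these settings. When 1 TPM was asked for in 6 libraries, 4 genes were called for LIN28B versus EV under the LoVo label (main count 7), 4 for LIN28B with alpelisib versus EV (7), 4 for LoVo EV versus DLD-1 EV (7) and 3 for the difference of the LIN28B effect (6), because HLA-DRB1, HLA-DPA1 and HLA-DPB1 were no longer tested. Leaving out 1 library at a time gave 7 genes for LIN28B versus EV under the LoVo label, 6 to 7 for LIN28B with alpelisib versus EV there and for LoVo EV versus DLD-1 EV, 6 to 7 for the difference of the LIN28B effect, 1 to 2 for alpelisib in DLD-1 and for LIN28B with alpelisib versus EV there, and 0 to 1 between the alpelisib groups. The count of 2 and that of 1 between the alpelisib groups came without replicate 3 of DLD-1 LIN28B with alpelisib, when CD74 passed. PSMB8 changed sign between the EV groups, from -0.01 to 0.29 after median-of-ratios scaling.

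Replicate numbers did not pair the libraries. With the replicate number as a block, 7 of the 8 genes were called for LIN28B versus EV under the LoVo label, 0 in DLD-1 and 1 for alpelisib under each label. Over all genes, LIN28B versus EV in DLD-1 called 469 genes, 290 with no filter, 183 with only the compared groups fitted and 185 to 229 with 1 library left out. The difference of the alpelisib effect called 157, 264 after scaling and 82 to 155 with 1 library left out. LoVo EV versus DLD-1 EV called 10294, and 6696 with LoVo EV replicate 3 as the only LoVo EV library, an alternative chosen after seeing the data because its mitochondrial share was nearest to the other groups. Depth is unknown, so no counting error could be estimated for levels near 0 TPM.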
